A study of Mus musculus with 15 samples.

Results

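The genes followed here are 9 of the 45861 genes in the liver expression table, chosen by name: Cyp26a1, Cyp26b1, Rara, Rarb, Rxra, Rbp4, Ttr, Lrat and Dhrs3. All 9 were found in the table under these symbols, and all 9 reached 1 FPKM (a count of fragments divided by transcript length and library size, so that levels can be compared between genes) in at least 3 libraries. Livers came from C57BL/6 mice, either wild type (WT) or lacking Fkbp5 (knockout, KO), which encodes a co-chaperone of HSP90 that restrains the glucocorticoid receptor. There were 4 WT and 3 KO libraries from control animals, which ate a control liquid diet and were gavaged with maltose. There were 4 WT and 4 KO libraries from ethanol animals, whose diet was raised to 5% ethanol and kept there for 10 days before a gavage of 5 g/kg ethanol. All livers were taken 9 hours after the gavage, so that the long diet and the last dose cannot be told apart. The knockout allele, the age and the sex of the mice are not given in the sources used here.

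The liver is the main store of vitamin A. Retinol is bound in blood by retinol-binding protein, the product of Rbp4, which travels in a complex with transthyretin, the product of Ttr, and both proteins are made by hepatocytes. Stellate cells esterify retinol through lecithin retinol acyltransferase, the product of Lrat, and keep the esters in lipid droplets. Retinol is oxidised to retinal and then to retinoic acid, and Dhrs3 encodes an enzyme that turns retinal back into retinol. Retinoic acid acts through nuclear receptors, the RARs (Rara, Rarb), which bind DNA as heterodimers with the RXRs (Rxra), and it is removed by the hydroxylases encoded by Cyp26a1 and Cyp26b1. Cyp26a1, Rarb, Lrat and Dhrs3 are classical genes that retinoic acid raises in many tissues, and ethanol is known to compete with retinol for dehydrogenases and to lower hepatic vitamin A.

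Fkbp5 itself followed the titles of the libraries. It stood at 3.27 to 15.2 FPKM in WT controls, 23.9 to 54.5 in WT on ethanol, 0.351 to 1.56 in KO controls and 2.45 to 5.41 in KO on ethanol, and the genotypes did not overlap on either diet. The title of WT ethanol replicate 4 gives WT but its genotype label KO, and its Fkbp5 level of 45.2 FPKM lay inside the WT ethanol range and above every KO library. The libraries held an estimated 23700000 to 30300000 fragments. Xist, the RNA of the inactive X chromosome, exceeded 10 FPKM in 7 of the 15 libraries: 2 of 4 in WT controls, 2 of 4 in WT on ethanol, 2 of 3 in KO controls and 1 of 4 in KO on ethanol. In KO control replicate 1 the 10 most abundant genes took 59.3% of all FPKM, against 19.7% to 28.5% in the other libraries. The gene Rn7s1 stood at 183764 FPKM in that library and at 0 in the other 14. Alb, the defining hepatocyte gene, was listed at 0 in KO ethanol replicate 3 and at 11793 to 19019 FPKM elsewhere. Pancreatic acinar markers, which liver does not make, summed to 48.0 to 133 FPKM in WT controls, 7.66 to 36.7 in WT on ethanol, 8.13 to 26.8 in KO controls and 3.88 to 10.05 in KO on ethanol. Of these 14 markers, 14 were called lower with ethanol in WT, where 4.62% of all genes tested were called lower. On the control diet 8 were called lower in KO than in WT. They are among the 25 genes, 0.181% of all tested, that this comparison called in either direction. The part of these markers in the results below was not tested. In RNA of whole liver, fewer cells of a type and less RNA per cell cannot be told apart.

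The mean levels of the 9 genes ran from 2.21 to 1501 FPKM. Averaged over 15 libraries, Rbp4 stood at 1501 FPKM and Ttr at 1493, and neither was above the other throughout, since Rbp4 was the higher in 7 of 15 libraries. Rxra followed at 64.5 FPKM, above Dhrs3 at 44.7 in 13 of 15 libraries. Cyp26a1 had a mean of 34.1 and a median of 7.03 FPKM, because its values ran from 1.70 to 134. Cyp26b1 stood at 8.56 FPKM, Rara at 5.01, Lrat at 3.98 and Rarb at 2.21. Cyp26b1 was above Rara in 8 of 15 libraries, which were the ethanol libraries, and below it in every control library. Rara was above Lrat in 10 of 15, so that this pair was not separated beyond its spread, whereas Lrat was above Rarb in 13 of 15. The coefficient of variation over all libraries was 11.5% for Rxra, 18.1% for Ttr, 18.3% for Rbp4 and 141% for Cyp26a1. In their lowest libraries Cyp26a1 rested on an estimated 72 fragments, Cyp26b1 on 91 and Rarb on 95.

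**Figure D1:**
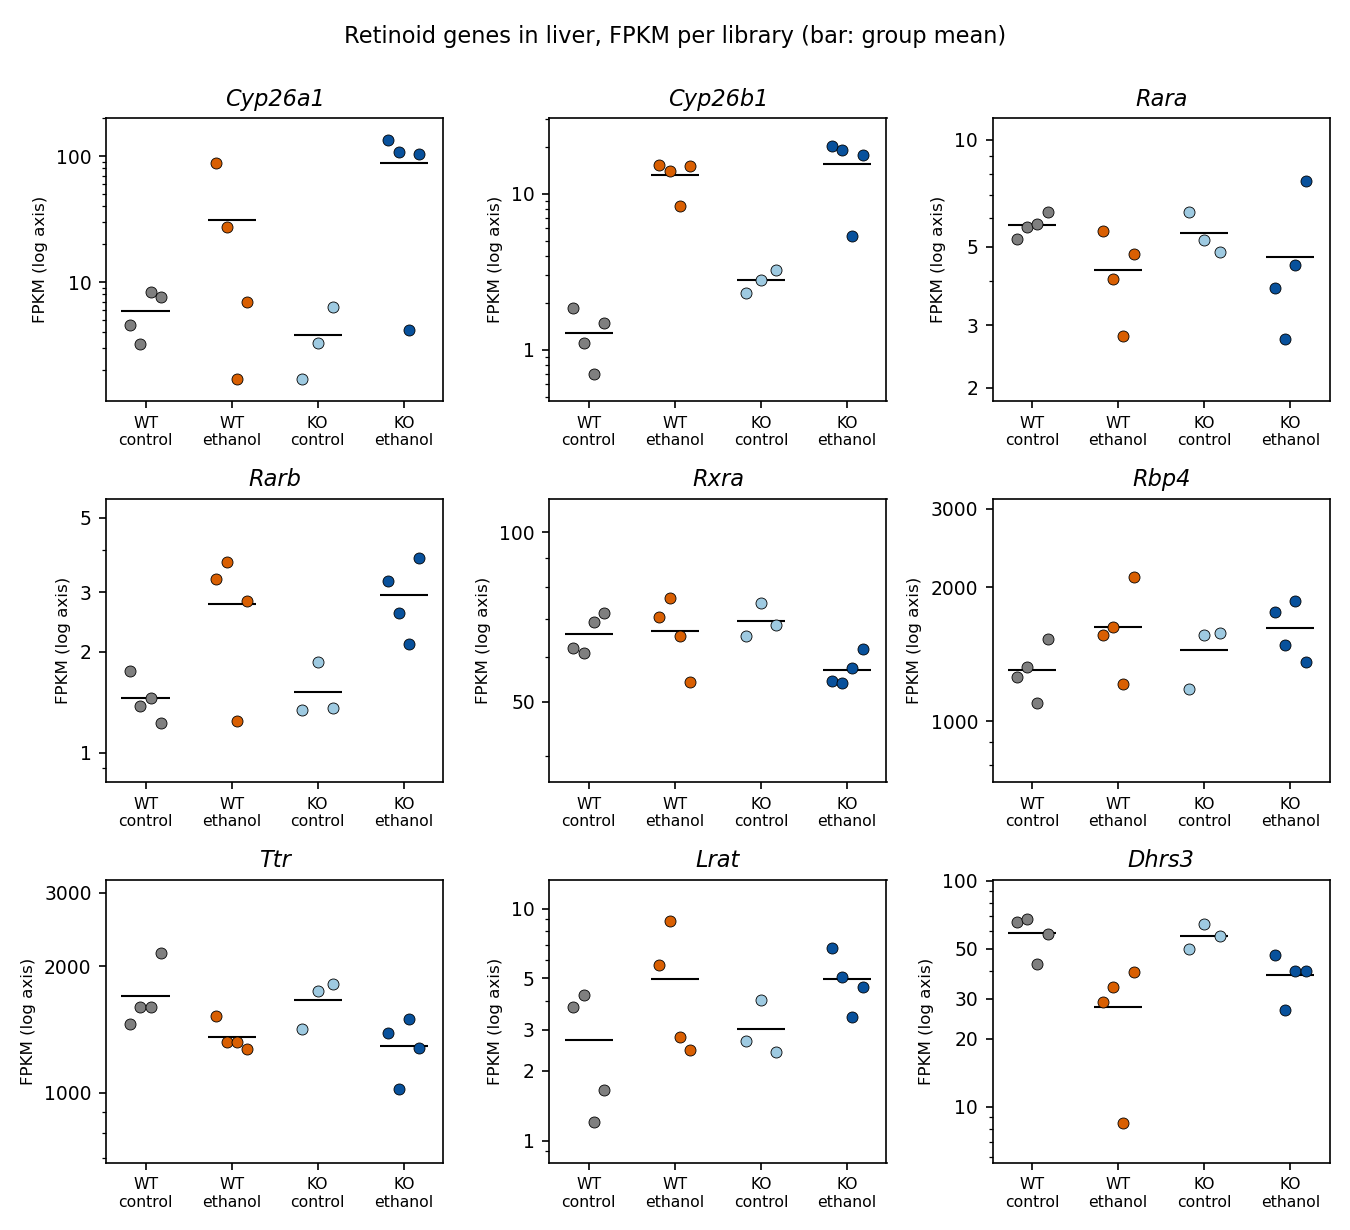
FPKM of each gene in each library, on a log axis, for the 4 groups; each point is 1 library and the bar is the group mean. Cyp26b1 was 8.34 to 15.3 FPKM in WT ethanol against 0.704 to 1.84 in WT control, while Rxra stayed between 54.0 and 76.4 FPKM in all libraries.

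Ethanol raised the clearance gene Cyp26b1 in both genotypes. In WT livers 1 of the 9 genes, Cyp26b1, was called higher and none was called lower at an adjusted p under 0.05, where 3.09% of all 13840 genes tested were called higher, 4.62% lower and 7.7% in either direction. In KO livers it was again Cyp26b1 alone, where 1.4% of genes were called higher, 2.72% lower and 4.13% in either direction. Without adjustment, 3 genes in WT and 4 in KO had a p under 0.05, against 25.8% and 21.7% of all genes. The groups did not overlap for 1 gene higher and 1 lower in WT, beside 6.4% and 9.28% of all genes, and for 2 higher and 2 lower in KO, beside 5.72% and 15.2%. The median log2 difference of the 9 genes was 0.31 in WT and 0.17 in KO, beside medians of -0.04 and -0.10 over all genes tested. All log2 differences are of FPKM + 1, which understates the change of genes with low levels.

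Cyp26b1 (chr6:84571414-84593908 on GRCm38) encodes a retinoic acid hydroxylase with a role beside Cyp26a1. In WT control livers it read 1.84, 1.11, 0.704 and 1.48 FPKM, and in WT ethanol livers 15.3, 13.9, 8.34 and 15.04. Every ethanol library lay above every control library, and replicate 3 was the lowest of the ethanol group. The difference was 2.62 on the log2 scale (SE 0.33, adjusted p = 0.0021), from a mean of 1.28 ± 0.49 FPKM to 13.1 ± 3.3 (SD, n = 4 and 4). In KO livers the control libraries read 2.30, 2.81 and 3.26 FPKM and the ethanol libraries 20.3, 19.2, 5.33 and 17.6. Again no ethanol library fell into the control range, and again replicate 3 was the lowest. The KO difference was 1.99 (SE 0.36, adjusted p = 0.0129), from 2.79 ± 0.48 (n = 3) to 15.6 ± 6.9 FPKM (n = 4). The call held in WT under all 31 other settings tried and in KO under 28 of 31; it was lost when only the KO groups were fitted (adjusted p = 0.0806), without KO control replicate 2 (0.0553) and in the Xist-low libraries alone (0.12), where KO control is a single library. Among the 4 transcripts listed for the gene, the same one held 73.3% of the level in WT controls, 81.4% in WT on ethanol, 69.9% in KO controls and 83.3% in KO on ethanol.

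The tested genes whose levels ran most closely with Cyp26b1 over the 15 libraries were Zfp746 (Pearson r = 0.956 on log2 values), Adgrg1 (0.931) and Gm8783 (0.931). Ethanol and control libraries differ in all of them, which alone gives a high r. Zfp746, a zinc finger repressor gene, rose by 0.98 on the log2 scale in WT (adjusted p = 0.00287) and by 0.89 in KO (0.0105). Gm8783, listed under a provisional symbol, rose by 2.12 (adjusted p = 0.000234) and by 1.89 (0.000623). Adgrg1, an adhesion receptor gene, rose by 0.42 in WT (adjusted p = 0.0292), while its KO difference of 0.41 was not called (0.0543).

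Cyp26a1 (chr19:37697732-37701536) encodes the main hepatic hydroxylase of retinoic acid and is the textbook example of a gene that retinoic acid induces. Its control libraries read 4.55, 3.22, 8.40 and 7.59 FPKM in WT and 1.71, 3.31 and 6.41 in KO. Its ethanol libraries read 89.0, 27.6, 1.70 and 7.03 in WT and 134, 109, 4.15 and 105 in KO. The ethanol livers thus split: 5 of 8 stood above every control library, at 27.6 to 134 FPKM, and WT ethanol replicates 3 and 4 and KO ethanol replicate 3 stood inside the control range or below it. With this spread neither difference was called: the log2 difference was 1.22 in WT (SE 1.09, adjusted p = 0.506, 95% interval -1.13 to 3.57) and 3.59 in KO (SE 1.18, adjusted p = 0.1, interval 1.05 to 6.13). The KO difference was called under 2 of 31 other settings. It was 4.71 without KO ethanol replicate 3 (adjusted p = 0.0237) and 4.05 with all libraries kept and weighted by their spread (adjusted p = 0.0045). With these weights 4140 of all genes were called in KO, against 571 in the main fit. Xist exceeded 10 FPKM in KO ethanol replicate 3 and in WT ethanol replicates 2 and 4; with a sex term the differences were 1.22 in WT (adjusted p = 0.436) and 2.97 in KO (0.157).

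Promoter sequences are shown because retinoic acid receptors bind direct repeats of a hexamer, and a spacing of 5 bases (DR5) is the arrangement best known for RAR-RXR heterodimers. The consensus hexamer AGGTCA was searched together with the variants AGTTCA and then GGGTCA as well as GGTTCA on both strands, in repeats spaced by 1, 2 or 5 bases, from 250 bases before to 50 after the gene starts held in a promoter table (RefSeq, GRCm38.p6). A DR5 was found in 32 of 32851 windows, or 0.097%, and a single hexamer in 43.7%. Of the genes followed here, 8 had a window in the table, 15 windows in all, and a DR5 was found in those of Cyp26a1 and Rarb; no window of the 8 held a repeat spaced by 1 or 2 bases. The windows do not cover every start of the listed transcripts. Those that begin exactly at the gene start of a window made up 59% of the level of Cyp26a1 and 3.49% of Cyp26b1. They made up 33% of Rara, 98% of Rarb, 11.4% of Rxra, 85.4% of Dhrs3 and 100% of Rbp4 and Lrat. For Cyp26b1 the leading transcript begins inside the window, at base 84593908. Capitals mark the hexamers of the DR5 in the windows of Cyp26a1 (chr19:37697558-37697857, plus strand), Rarb (chr14:16575427-16575726, minus strand) and, for contrast, Cyp26b1 (chr6:84593761-84594060, minus strand), which holds none of the hexamers.
Cyp26a1: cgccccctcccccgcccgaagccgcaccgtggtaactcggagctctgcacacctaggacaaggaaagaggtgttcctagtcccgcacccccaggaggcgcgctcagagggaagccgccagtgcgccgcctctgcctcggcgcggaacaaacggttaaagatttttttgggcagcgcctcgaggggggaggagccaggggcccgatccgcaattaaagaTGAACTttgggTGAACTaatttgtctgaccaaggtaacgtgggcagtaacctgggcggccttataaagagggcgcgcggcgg
Rarb: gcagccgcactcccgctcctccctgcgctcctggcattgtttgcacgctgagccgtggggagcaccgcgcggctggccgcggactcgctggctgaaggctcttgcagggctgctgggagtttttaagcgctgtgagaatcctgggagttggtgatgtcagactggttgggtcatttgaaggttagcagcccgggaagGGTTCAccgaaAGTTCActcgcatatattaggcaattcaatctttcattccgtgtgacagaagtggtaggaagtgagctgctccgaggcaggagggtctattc
Cyp26b1: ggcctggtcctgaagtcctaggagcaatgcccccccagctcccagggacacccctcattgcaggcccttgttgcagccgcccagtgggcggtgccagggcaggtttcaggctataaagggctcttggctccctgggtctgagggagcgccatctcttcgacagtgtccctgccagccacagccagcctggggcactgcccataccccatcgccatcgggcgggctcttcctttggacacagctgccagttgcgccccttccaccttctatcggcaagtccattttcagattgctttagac
The Cyp26a1 repeat lies at chr19:37697776-37697792, positions -32 to -16 from the gene start that defines its window, and reads from the opposite strand. The other listed transcript, with 41% of the level, begins upstream of the repeat, at base 37697732. The Rarb repeat lies at chr14:16575513-16575529, positions -53 to -37, in the direction of the gene. These are matches of letters, and binding was not measured.

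The Cyp26a1 repeat also lies in the window of Gm32342 (chr19:37677387-37697564), a provisional gene annotated on the other strand, with 167 bases between its listed span and that of Cyp26a1. Its control libraries read 1.79, 1.37, 2.16 and 3.24 FPKM in WT and 0.924, 1.75 and 2.86 in KO, and its ethanol libraries 8.66, 5.20, 0.930 and 1.96 in WT and 8.87, 7.81, 1.74 and 10.1 in KO. The same 5 ethanol libraries were high and the same 3 low as for Cyp26a1. Gm32342 was the tested gene closest to Cyp26a1 (Pearson r = 0.983, Spearman rho = 0.957 over 15 libraries). The next closest were Ubap1 (r = 0.931) and Cyp2c53-ps (0.924), neither of them among the tested genes with a DR5 window. The libraries high in Cyp26a1 were all ethanol libraries, so that a difference between diets alone can give a high r. The ethanol differences of Gm32342 were 0.49 in WT (adjusted p = 0.575) and 1.39 in KO (0.161), neither of them called. The listed spans do not overlap, and whether the libraries keep strand is not given in the sources used here. Gm32342 was picked after its values were seen. Of the 31 genes with a DR5 window, 4 were expressed well enough to be tested: Cyp26a1, Gm32342, Rarb and Blvrb, the gene of a biliverdin reductase, whose differences were 0.52 in WT (adjusted p = 0.32) and 0.56 in KO (0.357).

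**Figure D2:**
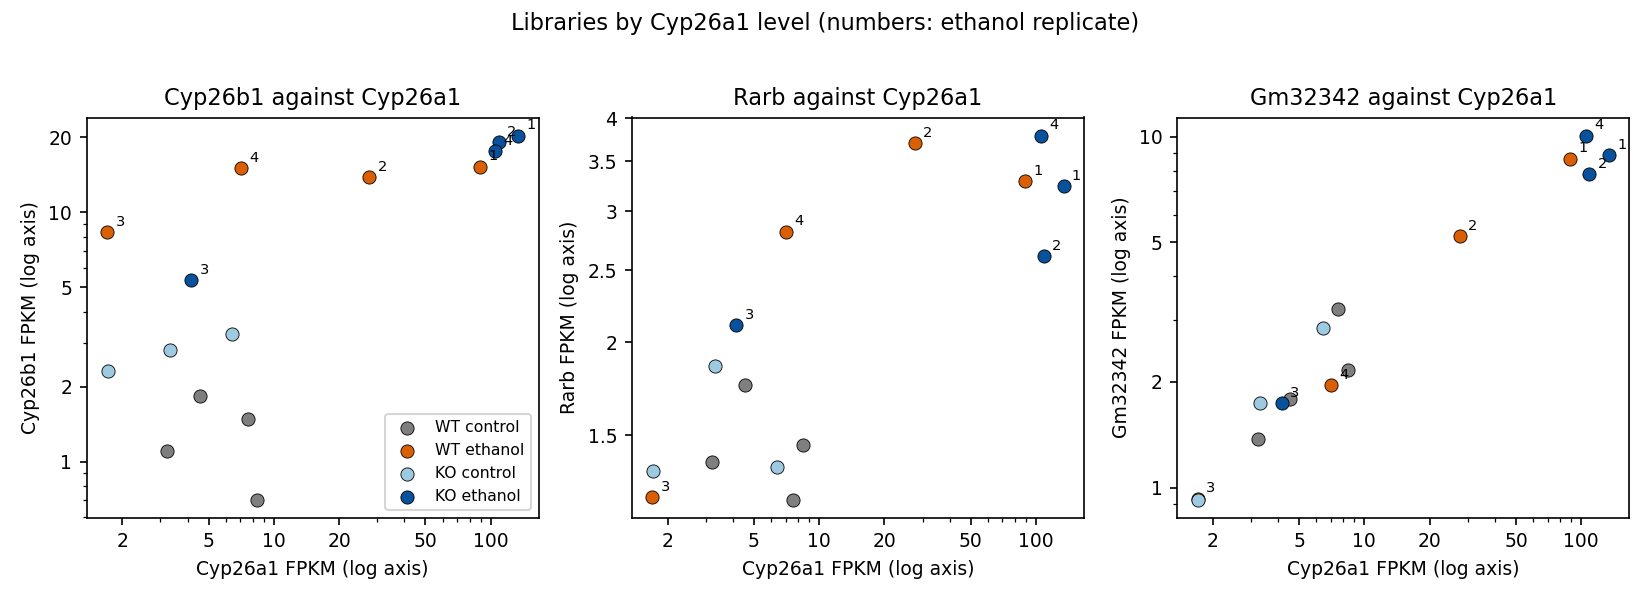
Cyp26b1, Rarb and Gm32342 against Cyp26a1, in FPKM on log axes; each point is 1 library, coloured by group, with replicate numbers beside ethanol libraries. Cyp26b1 exceeded the control libraries also in the 3 ethanol livers where Cyp26a1 stayed at 1.70 to 7.03 FPKM, whereas Gm32342 was low in these 3.

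Among the receptors, Rarb showed the difference closest to a call. Rarb (chr14:16430839-17082331) encodes the receptor that is itself raised by retinoic acid. Its control libraries read 1.75, 1.38, 1.46 and 1.23 FPKM in WT and 1.34, 1.86 and 1.36 in KO, and its ethanol libraries 3.30, 3.70, 1.24 and 2.82 in WT and 3.24, 2.61, 2.11 and 3.79 in KO. In KO the groups did not overlap, and in WT only replicate 3 of the ethanol group fell among the controls. The log2 differences of 0.57 in WT (SE 0.20, adjusted p = 0.102) and 0.63 in KO (SE 0.22, adjusted p = 0.119) were not called. Of 31 other settings, 3 called the WT difference and 2 the KO difference. Among them was the fit without WT ethanol replicate 3, at 0.80 (adjusted p = 0.0152) and 0.63 (0.0323). Transcripts that start at the window printed above made up 87.9% and 10.1% of the level, and the pair that starts far upstream made up 1.07% and 0.91%.

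Rara, the more abundant of the RARs followed here, and Rxra, the heterodimer partner, showed no called difference. Rara (chr11:98927813-98974942) read 5.25, 5.67, 5.80 and 6.27 FPKM in WT controls, 5.54, 4.06, 2.79 and 4.75 in WT on ethanol, 6.27, 5.23 and 4.84 in KO controls and 3.82, 2.75, 4.45 and 7.67 in KO on ethanol. Ethanol and control livers overlapped in both genotypes, and the differences were -0.38 in WT (SE 0.22, adjusted p = 0.292) and -0.25 in KO (SE 0.24, adjusted p = 0.576). Rxra (chr2:27676445-27763319) read 62.4, 61.0, 69.1 and 71.8 FPKM in WT control and 70.7, 76.4, 65.3 and 54.1 in WT ethanol livers, a difference of 0.00 (SE 0.11, 95% interval -0.24 to 0.25). In KO it read 65.5, 74.7 and 68.4 in control and 54.4, 54.0, 57.4 and 62.1 in ethanol livers. The KO groups did not overlap and every ethanol library was the lower, yet the difference of -0.28 (SE 0.12) was not called (adjusted p = 0.202). With libraries weighted by their spread it was called, at -0.39 (adjusted p = 0.00476), as were 4140 of all genes, against 571 in the main fit. Scaling every library to the same FPKM sum moved the median of all genes in KO from -0.10 to 0.19, and Rxra to 0.06 and Rara to 0.04 with it. The leading transcript held 84.8% of Rxra and 53.9% of Rara.

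**Figure D3:**
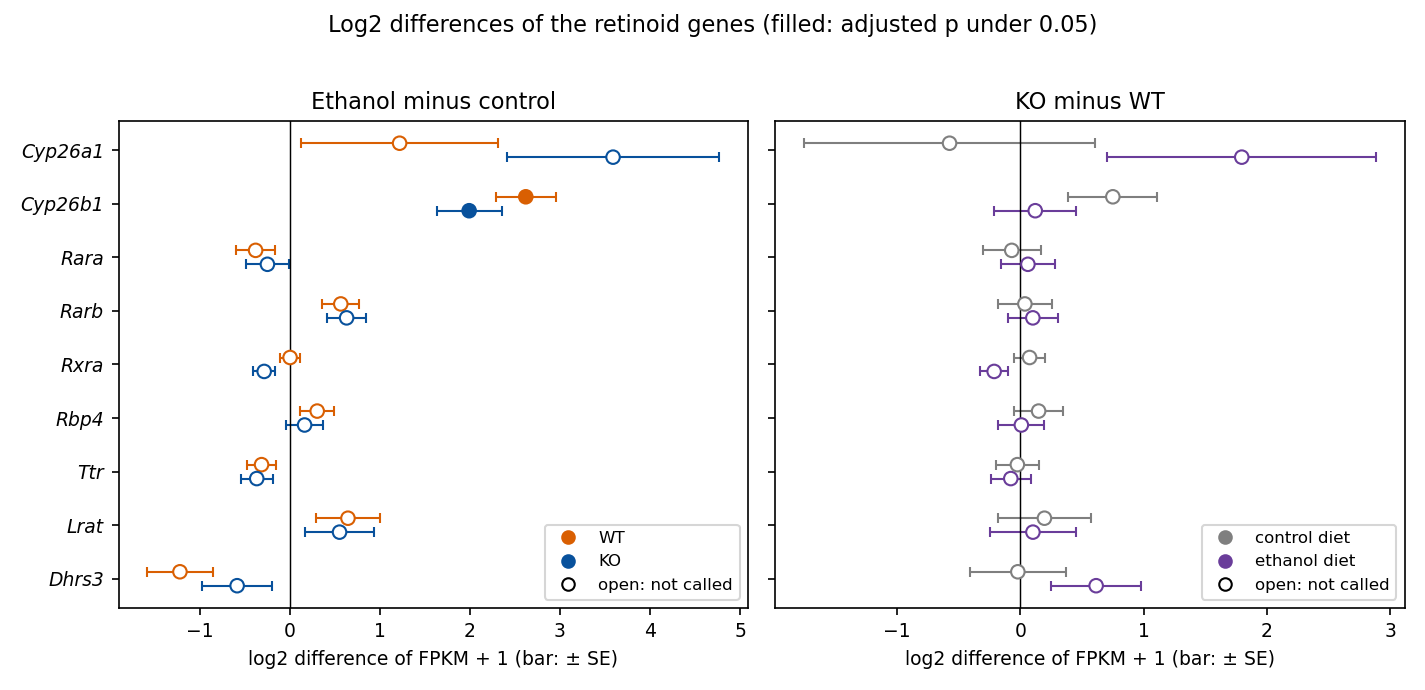
Log2 differences of FPKM + 1 for ethanol minus control in each genotype (left) and KO minus WT on each diet (right); points are limma estimates, bars their standard errors, and filled points have an adjusted p under 0.05. Cyp26b1 is the filled gene, at 2.62 in WT and 1.99 in KO, and the widest errors are those of Cyp26a1.

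The storage gene Lrat and the reductase gene Dhrs3 had differences of opposite sign, without a call. Dhrs3 (chr4:144892608-144927645), the retinal reductase, read 65.9, 67.4, 43.0 and 58.0 FPKM in WT control and 29.2, 34.0, 8.48 and 39.4 in WT ethanol livers. The groups did not overlap, and replicate 3 was the lowest ethanol library. The WT difference was -1.22 (SE 0.36) with an adjusted p of 0.0577, and it was called under 6 of 31 other settings, among them the omission of WT ethanol replicate 4 (-1.45, adjusted p = 0.026). In KO livers Dhrs3 read 50.05, 64.3 and 57.0 FPKM in control and 47.1, 26.8, 39.8 and 39.7 in ethanol animals. All 4 ethanol libraries lay below all 3 controls, and the difference of -0.58 (SE 0.39) was not called (adjusted p = 0.412). Of its 9 listed transcripts, the leading one held 66.2% of the level, and its share was 66.5%, 68.5%, 67.2% and 64.6% in WT without and with ethanol and in KO without and with ethanol, in that order.

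Lrat (chr3:82892582-82903974), the gene of the retinol-esterifying enzyme, read 3.76, 4.26, 1.20 and 1.65 FPKM in WT controls, 5.72, 8.89, 2.81 and 2.47 in WT on ethanol, 2.68, 4.02 and 2.41 in KO controls and 6.80, 5.08, 3.40 and 4.58 in KO on ethanol. The ethanol group had the higher mean in both genotypes and overlapped its controls in both. The differences were 0.65 in WT (SE 0.35, adjusted p = 0.263) and 0.55 in KO (SE 0.38, adjusted p = 0.423). Lrat is made by stellate cells, whose 18 other markers summed to 111.5 to 175 FPKM in WT controls, 83.0 to 152.5 in WT on ethanol, 118 to 169 in KO controls and 87.7 to 120 in KO on ethanol. None of these markers was at 0 in every library; with ethanol 1 was called higher and 1 lower in WT, and 2 lower in KO, with list medians of -0.37 and -0.39. Markers of other liver cells had medians of -0.44 in WT and -0.53 in KO for sinusoidal endothelial cells and -0.57 and -1.08 for Kupffer cells. There was 1 call among them (higher, in WT). Of 9 periportal hepatocyte markers 3 were called higher in WT and 2 in KO, with medians of 0.19 and 0.59. Of 8 pericentral hepatocyte markers 2 were called lower in WT and 1 in KO, with medians of -0.32 and -0.29. The part of cell numbers in the Lrat values was not tested.

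The retinol carriers were the most abundant of the 9 genes and showed no called difference. Rbp4 (chr19:38116620-38125321) lies 415084 bases from Cyp26a1 on the same chromosome. It read 1255, 1321, 1097 and 1531 FPKM in WT controls, 1565, 1625, 1214 and 2103 in WT on ethanol, 1183, 1566 and 1580 in KO controls and 1764, 1486, 1863 and 1357 in KO on ethanol. The groups overlapped, and the differences were 0.31 in WT (SE 0.19, adjusted p = 0.32) and 0.17 in KO (SE 0.20, adjusted p = 0.67). Ttr (chr18:20665250-20674326) read 1455, 1598, 1600 and 2148 FPKM in WT controls, 1522, 1320, 1317 and 1268 in WT on ethanol, 1421, 1748 and 1816 in KO controls and 1384, 1020, 1498 and 1275 in KO on ethanol. Its ethanol means were lower in both genotypes with overlapping groups, and the differences were -0.31 in WT (SE 0.16, adjusted p = 0.242) and -0.37 in KO (SE 0.18, adjusted p = 0.245).

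The Rbp4 to Ttr ratio is unaffected by scaling that multiplies a whole library by a single factor, which quantile normalization does not do. It was 0.862, 0.827, 0.686 and 0.713 in WT controls, 1.03, 1.23, 0.922 and 1.66 in WT on ethanol, 0.832, 0.896 and 0.870 in KO controls and 1.27, 1.46, 1.24 and 1.06 in KO on ethanol. All 8 ethanol libraries stood above all 7 control libraries. The group means were 0.772 ± 0.086 and 1.21 ± 0.33 in WT (SD, n = 4 and 4), and 0.866 ± 0.032 and 1.26 ± 0.16 in KO (n = 3 and 4). The ratio was formed after the values of both genes were seen and is given without a test. The share of other gene pairs that separate in this way was not counted.

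**Figure D4:**
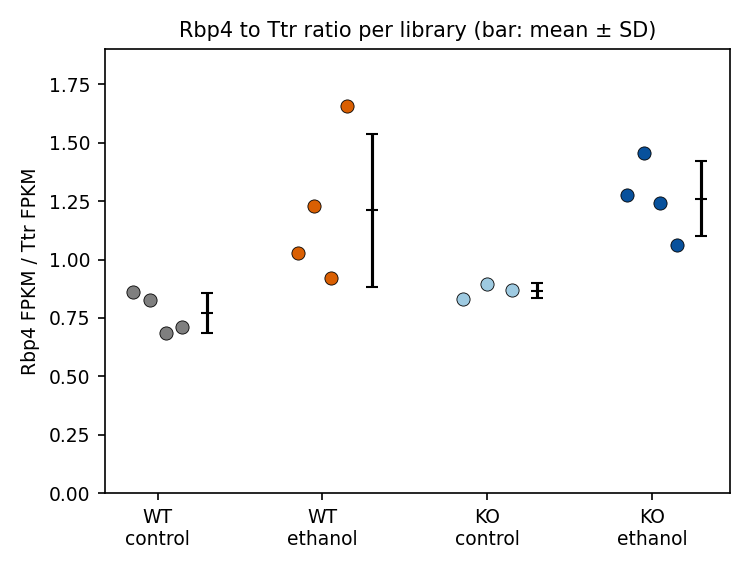
Ratio of Rbp4 FPKM to Ttr FPKM in each library, with the mean and SD of each group beside its points. Control libraries lie between 0.686 and 0.896 and ethanol libraries between 0.922 and 1.66.

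Loss of Fkbp5 was not followed by a called difference in any of the 9 genes. On the control diet Fkbp5 itself was not called either (-2.13, SE 0.42, adjusted p = 0.0702), with means of 8.55 FPKM in WT and 0.995 in KO. It was called on the ethanol diet (-3.115, adjusted p = 0.00568). On the control diet 0 of 9 were called between KO and WT, where 0.181% of all genes were; on the ethanol diet 0 of 9, where 0.101% were; and 0 of 9 in the interaction of genotype and diet, where 0% were and 4% of all genes had an unadjusted p under 0.05. Unadjusted, none of the 9 genes passed 0.05 in these 3 limma comparisons, against 4.23% of all genes on the control diet and 5% on the ethanol diet; they share libraries with the comparisons of ethanol. Cyp26b1 came nearest: its 3 KO control libraries, at 2.30 to 3.26 FPKM, all lay above the 4 WT control libraries, at 0.704 to 1.84, as did 4.54% of all genes. This difference was 0.75 (SE 0.36, unadjusted p = 0.0575, adjusted p = 1), and on the ethanol diet it was 0.12 (SE 0.33). For Cyp26a1 the difference of KO minus WT on the ethanol diet was 1.79 (SE 1.09, unadjusted p = 0.123, adjusted p = 1) with overlapping groups. The largest interaction was that of Cyp26a1, 2.37 (SE 1.60, 95% interval -1.09 to 5.83), and that of Cyp26b1 was -0.63 (SE 0.49, interval -1.69 to 0.43), so that differences of several fold between the genotypes' responses lie inside these intervals. For Rxra the interaction was -0.29 (SE 0.17, interval -0.65 to 0.07), and for Rarb 0.06 (SE 0.30, interval -0.58 to 0.71).

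Averaging the ethanol difference over both genotypes, a comparison added after the data were seen, used all 15 libraries for a single effect. It called 4 of the 9 genes, where 20.9% of all genes were called, 7.02% higher and 13.9% lower. Cyp26b1 rose by 2.31 (SE 0.25, adjusted p = 0.000129) and Rarb by 0.60 (SE 0.15, adjusted p = 0.0145). Cyp26a1 rose by 2.41 (SE 0.80, adjusted p = 0.0487) and Dhrs3 fell by 0.90 (SE 0.27, adjusted p = 0.0308). The Rarb call held under 30 of 31 other settings, the Dhrs3 call under 22 and the Cyp26a1 call under 10, with adjusted p up to 0.242; with a sex term Cyp26a1 had an adjusted p of 0.0633. Ttr at -0.34 (adjusted p = 0.0593) and Lrat at 0.60 (adjusted p = 0.113) were not called. Of the genes known to be raised by retinoic acid, Cyp26a1, Rarb and Lrat had positive values and Dhrs3 a negative one.

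In the wider pathway, 100 other genes of which 83 were tested, the share called was near that of all genes in each genotype. With ethanol 4 were called higher and 3 lower in WT, 8.43% against 7.7% of all genes, and 2 higher and 2 lower in KO, 4.82% against 4.13%. The median log2 differences were -0.10 and -0.08. In the averaged comparison 9 were called higher and 16 lower, 30.1% against 20.9%. The counts of the lists below stand against the same shares of all genes, 3.09% higher and 4.62% lower in WT, 1.4% and 2.72% in KO, and 7.02% and 13.9% in the averaged comparison. Between KO and WT none was called on either diet or in the interaction. Some genes stand in more than 1 of the lists below.

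Adh4 and Adh7, genes of alcohol dehydrogenases that oxidise retinol as well as ethanol, fell in WT, and Adh4 in KO too. Of 18 genes of retinol and retinal interconversion, 2 were called lower and none higher in WT, and 1 lower in KO, with list medians of -0.15 and -0.16; in the averaged comparison 5 were called lower. Adh4 fell by 1.96 in WT (SE 0.33, adjusted p = 0.00602), from 58.0 ± 28.9 to 12.9 ± 2.9 FPKM, and by 2.05 in KO (SE 0.35, adjusted p = 0.0105), from 49.4 ± 19.6 to 10.8 ± 2.2. Adh7 fell by 0.84 in WT (SE 0.22, adjusted p = 0.0395); its KO difference of -0.60 was not called (adjusted p = 0.169). The WT call of Adh7 held under 18 of 31 other settings, and adjusted p was 0.0501 to 0.107 in those that lost it. Adh1, the most abundant Adh gene of the list, was not called in either genotype. Its means were 618 ± 182 FPKM in WT control, 733 ± 325 in WT ethanol, 516 ± 40 in KO control and 626 ± 58 in KO ethanol livers. Adh5, at means of 80.7 to 90.2 FPKM, was not called either. The Adh genes belong to a family of similar sequence, and how shared reads were assigned is not given in the sources used here.

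Retinyl ester hydrolysis had 11 tested genes, with 1 called higher in each genotype and none lower, and medians of -0.37 in WT and -0.47 in KO; in the averaged comparison 1 was called higher and 3 lower. The called gene was Pnpla2, which encodes adipose triglyceride lipase, a lipase of lipid droplets that also acts on retinyl esters. It rose by 0.94 in WT (SE 0.19, adjusted p = 0.0143), from 11.8 ± 1.4 to 24.0 ± 6.2 FPKM, and by 1.06 in KO (SE 0.21, adjusted p = 0.0192), from 12.6 ± 1.0 to 27.9 ± 7.3. These calls held under 29 of 31 other settings in WT and 25 in KO. Of 10 genes of retinol uptake, binding and esterification, 4 were tested and none was called in either genotype; Stra6l, the hepatic receptor for RBP4, had the lowest p, with differences of 0.31 in WT (adjusted p = 0.327) and 0.53 in KO (0.158), and 1 gene of this list was called higher in the averaged comparison.

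Carotenoid cleavage genes went in opposite directions in WT. Among 7 tested genes of retinoic acid synthesis and carotenoid cleavage, 1 was called higher and 1 lower in WT and none in KO, and the medians were 0.09 and 0.37; the averaged comparison called 1 higher and 3 lower. Bco1, whose enzyme cuts beta-carotene into retinal, rose by 0.92 (SE 0.26, adjusted p = 0.0489), and Bco2, whose enzyme cuts carotenoids off centre, fell by 1.14 (SE 0.25, adjusted p = 0.0193). Their KO differences were 0.38 (adjusted p = 0.463) and -0.81 (adjusted p = 0.108). The Bco1 call held under 12 of 31 other settings and the Bco2 call under 26. Of 6 tested genes of other retinoic acid clearance, Cyp3a13 was called higher in each genotype, by 1.63 in WT (SE 0.23, adjusted p = 0.0027) and 1.58 in KO (SE 0.25, adjusted p = 0.0081); it is a cytochrome P450 of the drug-metabolising Cyp3a family, and the list medians were 0.45 and 0.45. The averaged comparison called 2 of these 6 higher.

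Other retinoid receptors and coregulators held no call among 19 tested genes in either genotype, with medians of -0.06 and -0.02, and the averaged comparison called 2 higher and 2 lower. The lowest p belonged in WT to Nrip1, a corepressor gene that is also a retinoic acid target (0.62, adjusted p = 0.149), and in KO to Nr2c2, an orphan receptor gene (-0.34, adjusted p = 0.206). Among 9 tested RXR partner receptors of hepatocytes, none was called in WT and 1 was called lower in KO, with medians of -0.34 and -0.25; in the averaged comparison 3 were called lower. That gene, Ppara, the receptor that drives fatty acid oxidation, fell by 1.41 in KO (SE 0.32, adjusted p = 0.0312), from 46.3 ± 9.1 to 18.3 ± 9.3 FPKM, and its WT difference was -0.93 (SE 0.30, adjusted p = 0.0714). The KO call of Ppara held under 22 of 31 other settings, with adjusted p up to 0.292. In WT the lowest p was that of Thra, a thyroid hormone receptor gene, at -0.64 (adjusted p = 0.0683).

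Of 18 genes known to respond to retinoic acid, 11 were tested, and 1 was called higher in WT and none in KO, with medians of 0.16 and 0.11; the averaged comparison called 2 higher. The called gene, Egr1, is an immediate early gene that responds to many stimuli besides retinoic acid. It rose by 2.92 (SE 0.51, adjusted p = 0.00752), from 2.27 ± 0.90 to 32.6 ± 33.5 FPKM, and its KO difference was 1.57 (SE 0.55, adjusted p = 0.121). In KO the lowest p was that of Rarres1, named for its induction by retinoids, at 2.22 (SE 0.67, adjusted p = 0.0794), from 12.6 ± 7.2 to 64.8 ± 36.0 FPKM.

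**Figure D5:**
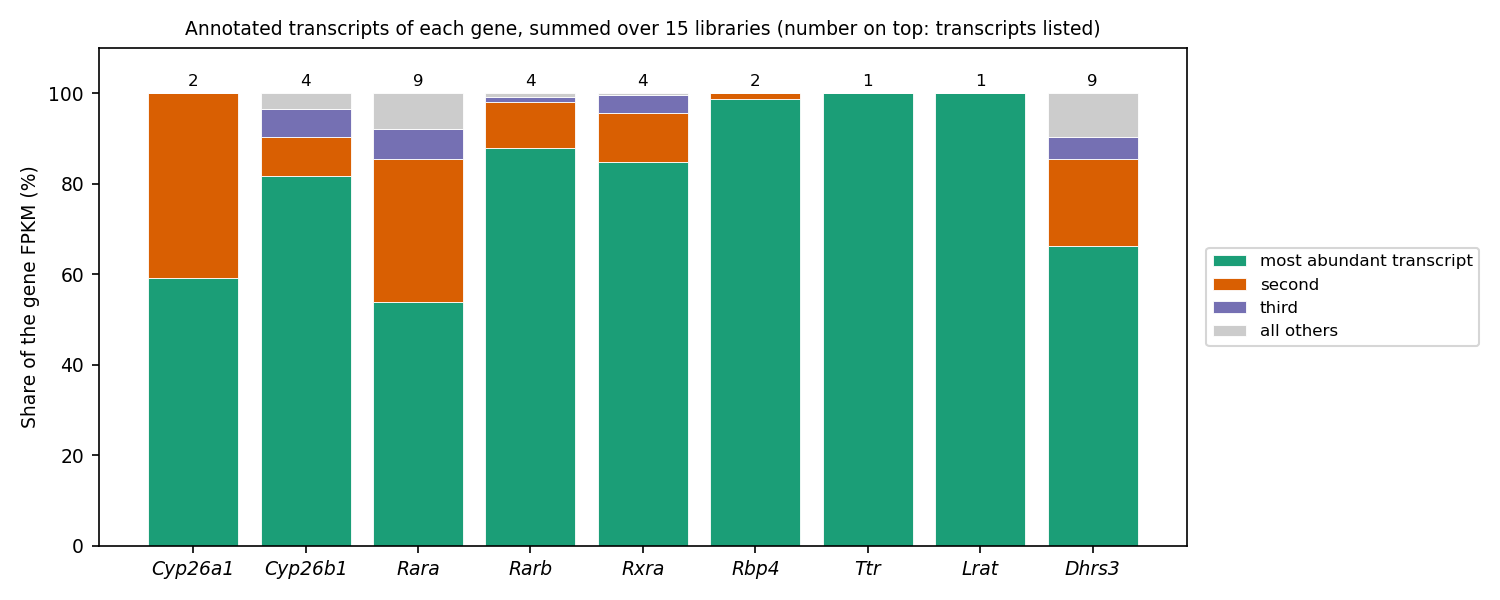
Share of each gene's FPKM, summed over 15 libraries, that belongs to its most abundant transcript, the next ones and all others; the number above a bar counts the transcripts. Ttr and Lrat have 1 transcript, Rbp4 has 98.7% in its leading one, and Rara, with 53.9%, is the most divided.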

How the data were processed

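RNA of 15 mouse livers was measured as FPKM per gene and per transcript. The authors deposited FPKM, made with TopHat, Cufflinks and Cuffdiff per the submitters' processing notes; versions, strand and handling of shared reads are not given in the sources used here. Depth was estimated from the FPKM that 1 fragment gives. The notes name mm9, but 99.53% of 41244 matched symbols overlapped GRCm38.p6 and 67.28% had both ends within 10 bases, so positions are given on GRCm38. Groups follow the titles. The 13840 genes with 1 FPKM or more in 3 or more libraries were fitted as log2(FPKM + 1) with limma 3.58.1 in R 4.3.3 (4 group means, eBayes with a trend) over 15 libraries. All tests were 2-sided, with Benjamini-Hochberg adjustment over all genes and calls at an adjusted p under 0.05. The fit was tested on simulated data. Replicates are taken as separate mice; p-values measure the spread between libraries, which may be technical.

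The members and lists were chosen with earlier results of these data known. The rule named the 9 genes, Fkbp5, up to 4 called genes of each list (or the 1 with the lowest p), and the 3 genes closest to each called member; the text gives those of the ethanol comparisons. Blvrb, Gm32342, Ubap1, Cyp2c53-ps, Adh1 and Adh5 fall outside it. Alternatives were pseudocounts, low-value filters, scalings, eBayes options, weighting of libraries, separate fits per comparison, a replicate block, a sex term, the regrouping of WT ethanol replicate 4, zeros taken as missing and leaving out each library. The Xist-low libraries alone and the averaged ethanol comparison were added after seeing the data. Python 3.11.15 with pandas 2.3.3, numpy 2.4.6, scipy 1.17.1 and matplotlib 3.10.9 was used.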

Additional observations from a re-analysis of the deposited data

Results flagged for a closer look

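Of 27 sets of 4 libraries (9 genes in 3 groups), 3 held a library set far apart from the others, where chance gives about 1 in 20. Cyp26a1 stood at 4.15 FPKM in KO ethanol replicate 3, against 105 to 134 in the other KO ethanol libraries. Cyp26b1 stood at 5.33 FPKM in the same library, against 17.6 to 20.3 in the rest. Cyp26b1 also stood at 8.34 FPKM in WT ethanol replicate 3, against 13.9 to 15.3 in the rest. In each case the library was the low one of its ethanol group, and for Cyp26b1 it still lay above the controls of its genotype.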

How the results depend on the processing

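No called value changed sign under the 31 other settings. Values of the 9 genes that were called neither way changed sign 76 times, in 23 of 45 pairs of gene and comparison. In the main fit all of these had a size of at most 0.29 on the log2 scale. The largest value after a change was 0.41, for the interaction of Ttr with a common sum, against -0.05 in the main fit. For ethanol in WT the count of called genes was 1. It became 2 with median-ratio scaling, with a sex term and with WT ethanol replicate 4 placed in KO. The count was 3 with quantile normalization and with library weights, where 1478 and 2248 of all genes were called, against 1066 in the main fit. Leaving out a library gave 1 to 2. For ethanol in KO it was 1 and became 5 with library weights, where 4140 of all genes were called, against 571 in the main fit. In a fit of only the groups compared it became 0, and leaving out a library gave 0 to 2. For ethanol averaged over genotypes it was 4 and became 6 with library weights, 5 with eBayes without a trend, 3 with both pseudocounts, robust eBayes, a sex term and the regrouping of WT ethanol replicate 4, 2 without a filter and with a common sum, and 1 in the Xist-low libraries alone; leaving out a library gave 2 to 5. The cause was not tested. The 3 counts between genotypes stayed at 0 under all settings.

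Over all genes, ethanol in WT called 1066 (156 to 2248 under other settings), ethanol in KO 571 (1 to 4140), KO against WT 25 on the control diet (1 to 669) and 14 on the ethanol diet (0 to 22), and the interaction 0 (0 to 43 with a library left out). Of the KO calls 34% were higher, against 59.7%, 52.2% and 95.1% with median-ratio scaling, quantile normalization and a common sum; for the averaged comparison 33.6% were, against 50.5%, 46.7% and 63%. A common sum moved the median of all genes from -0.04 to -0.14 in WT and from -0.10 to 0.19 in KO. The FPKM sum of KO control replicate 1 was 790741, of which Rn7s1 held 183764, and the next highest sum was 525108 (WT ethanol replicate 3). The part of this library in the KO values with a common sum was not tested. Deviations of libraries with the same number correlated at -0.33 to 0.44 (21 pairs, median -0.016), beside a median of 0.0009 for pairs with different numbers. Whether libraries of the same number shared a batch was not tested. With a replicate block 1 gene was called in WT, 1 in KO and 4 in the averaged comparison. There Cyp26a1 lost its averaged call (adjusted p = 0.0618) and Lrat gained one (0.0169). Of all genes the block called 673 in WT and 303 in KO. FPKM without counts allow no count model, and 3 or 4 libraries a group leave wide intervals for Cyp26a1.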
